A study of Mus musculus with 10 samples.

Results

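Cytochromes P450 are heme enzymes that put an oxygen atom into fatty acids, sterols, retinoids, drugs and toxins, using electrons passed on by P450 reductase and cytochrome b5 in the endoplasmic reticulum or by ferredoxin in mitochondria. In the kidney most of them sit in the proximal tubule, where the CYP4A and CYP2J and CYP2C enzymes turn arachidonic acid into hydroxylated and epoxidised lipids that act on vessels and on salt transport. The family described here was taken as the genes whose mouse symbol is Cyp followed by a digit, without Cyp1a1, Cyp1a2, Cyp27b1 and Cyp24a1. It had 77 members among the 21792 genes with values. Of these, 49 averaged 0.1 FPKM or more across the mice (FPKM are fragments scaled to gene length and library size) and could be tested, among 17129 genes tested in all. The other 28 were too low and are given by their levels alone.

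The values came from RNA of the kidney cortex of 10 mice labelled wild type, taken at day 28. The 4 sham mice had received PBS. The 6 AAN mice had received 1 intraperitoneal injection of aristolochic acid, a plant toxin, at 5 mg/kg, which induces aristolochic acid nephropathy (AAN). The methods describe the AAN model in male C57BL/6 mice aged 8 weeks, and the labels of the mice give neither strain, sex nor age. Each mouse was sequenced on its own, and each is named here by the tag in its label.

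The depth recovered from low FPKM values was 15.8 to 17.5 M fragments in sham mice and 13.4 to 16.5 M in AAN mice. The levels of all genes were not centred on no change: among genes tested, the median change was 0.75 on the log2 scale, and 82.3% of them lay above 0. The 10 markers of the early proximal tubule (the S1 and S2 segments) were present in every mouse, with a summed level of 2050 to 4129 FPKM in sham mice and 577 to 989 FPKM in 5 AAN mice. The sixth AAN mouse, B614, stood apart at 2339 FPKM and had the lowest summed levels of injured tubule, fibroblast, leukocyte and macrophage markers among AAN mice. Its high level was not particular to the proximal tubule markers. B614 was also the highest AAN mouse for thick limb (1940 FPKM), distal tubule with collecting duct (829 FPKM) and podocyte markers (126 FPKM). These lay above the highest sham mouse, at 1642, 649 and 83.7 FPKM. Results that rest on this mouse are given with and without it.

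The summed level of all 77 members was 3898, 2080, 2669 and 3002 FPKM in the sham mice. In the AAN mice it was 521 FPKM at the lowest, 703 FPKM at the median and 1479 FPKM at the highest, which was mouse B614. No AAN mouse reached the lowest sham mouse. As a share of the FPKM total without mitochondrially encoded genes, the family made up between 0.753% and 1.46% in the sham group, and between 0.203% and 0.579% in the AAN group. The order of the members changed as well. The leading member was Cyp4b1 or Cyp2e1 in the sham mice and Cyp2j5 in each of the 6 AAN mice.

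**Figure D1:**
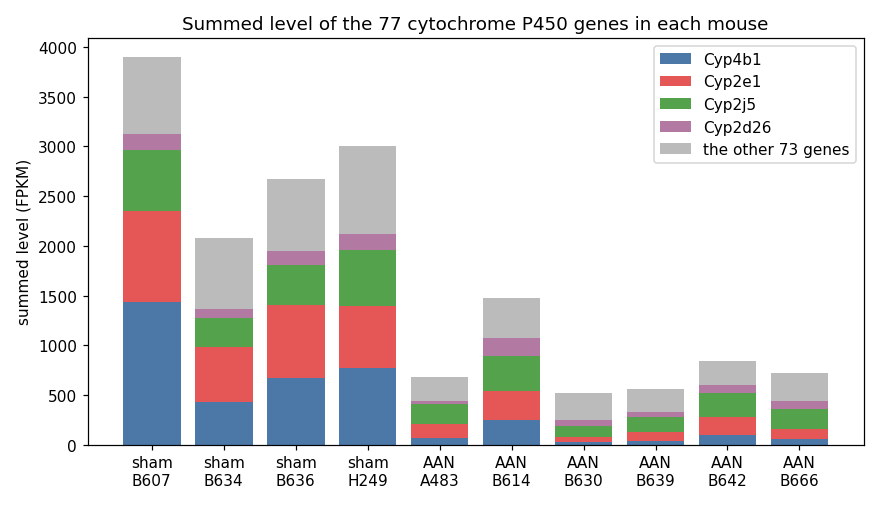
Summed level of the 77 cytochrome P450 genes in each mouse (y axis, FPKM), with 1 bar per mouse and the parts of Cyp4b1, Cyp2e1, Cyp2j5 and Cyp2d26 in colour. The 4 sham bars stand between 2080 and 3898 FPKM, AAN mouse B614 at 1479 FPKM and the other AAN mice between 521 and 841 FPKM.

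Of the 49 members tested, 16 were lower and 13 were higher in AAN mice at an adjusted p of no more than 0.05 with a change of 2-fold or more (limma on log2 of FPKM plus 0.1, Benjamini-Hochberg over all 17129 genes). Among all genes tested, 3.43% were lower and 35.8% were higher by the same limits. The share of members that were lower was thus 32.7% and that of members that were higher 26.5%. The median log2 fold change of the members was -0.28, beside 0.75 for all genes. In 12 members every AAN mouse lay below every sham mouse and in 11 every AAN mouse lay above, beside 3.25% and 40.3% of all genes. Without mouse B614, 17 members were lower and 13 higher. Among the higher members, Cyp2c65, Cyp2d37-ps and Cyp8b1 averaged under 0.1 FPKM in sham mice and could be tested only through their AAN values. Among the lower members, Cyp4f14 averaged under 0.1 FPKM in AAN mice and could be tested only through its sham values.

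The direction went with the level in sham mice. Of the 8 members with a sham mean of at least 50 FPKM, 7 were lower and none was higher in AAN mice, with a median log2 fold change of -2.37. The 719 genes of that level had a median of -0.42, and 25.3% of them were lower. Of the 11 members between 10 and 50 FPKM, 6 were lower and none was higher, where 8.25% of the 2231 genes at that level were lower. Below this the picture turned. Of the 9 members between 1 and 10 FPKM, 5 were higher and none was lower, beside 27.7% of genes at that level that were higher. Of the 21 members under 1 FPKM, 8 were higher and 3 lower, beside 55.4% and 0.992% of genes. These levels contain the sham values that also enter the fold changes, so the split is a description.

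**Figure D2:**
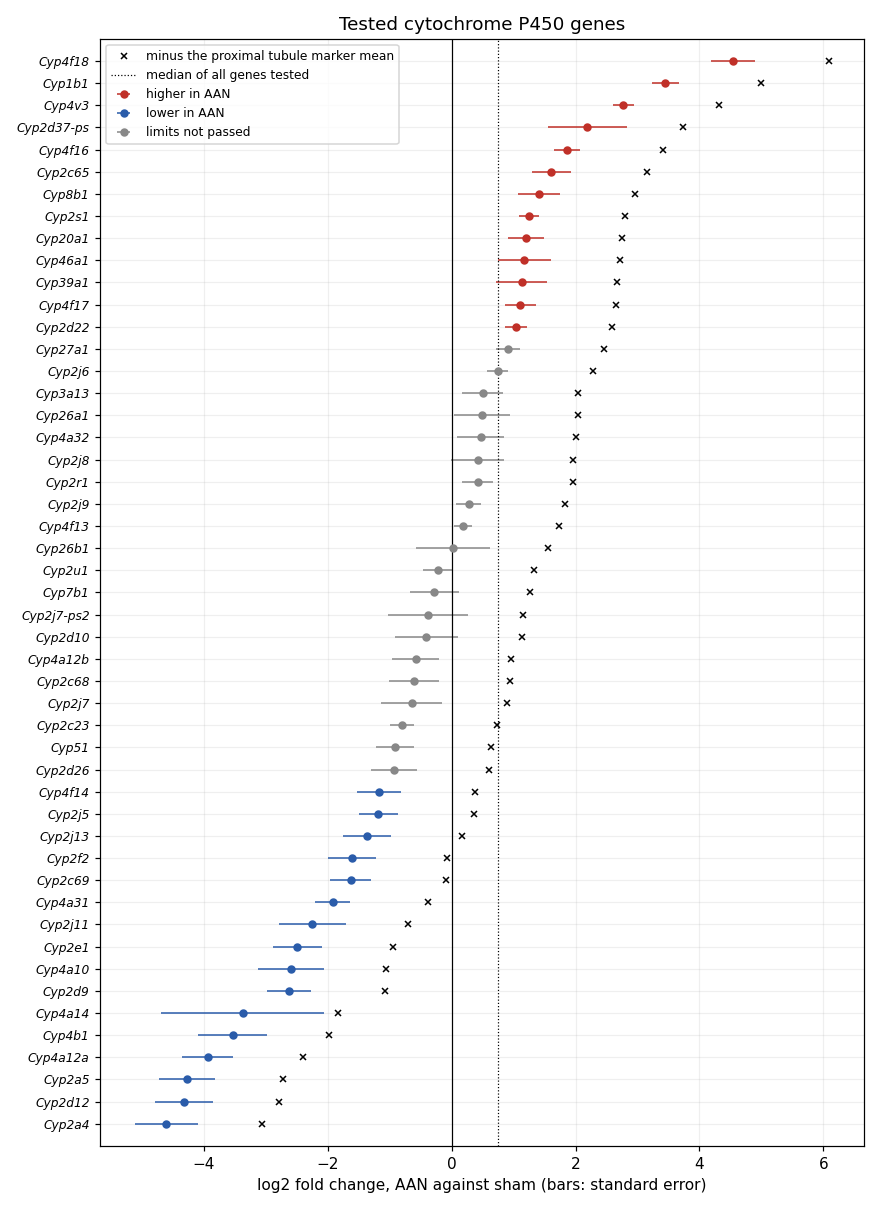
Log2 fold change of AAN against sham mice (x axis) for the 49 cytochrome P450 genes tested, with points for the estimates and bars for the standard error. Red points were higher (13), blue points lower (16) and grey points did not pass the limits (20), the dotted line marks the median of all genes at 0.75, and crosses give the change relative to the proximal tubule markers of the same mouse.

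Cyp4b1, which oxidises fatty acids and plant furans, was the most abundant member in sham mice. Its level was 427 FPKM at the lowest, 718 FPKM at the median and 1430 FPKM at the highest in sham mice, and 24.9 FPKM at the lowest, 62.0 FPKM at the median and 243 FPKM at the highest in AAN mice. The groups did not overlap, and the highest AAN value was that of mouse B614. The log2 fold change was -3.53 ± 0.55 (SE; limma, adjusted p = 0.000201). Cyp2e1, which oxidises ethanol, ketones and small solvents, came second. It stood at 920, 550, 744 and 622 FPKM in sham mice and at 54.3, 120 and 297 FPKM (lowest, median, highest) in AAN mice, again without overlap. Its mean was 4.94-fold lower in AAN mice, a log2 fold change of -2.49 ± 0.40 (limma, adjusted p = 0.000225). In bulk tissue fewer cells of a type and less RNA per cell cannot be told apart, here and in all that follows.

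**Figure D3:**
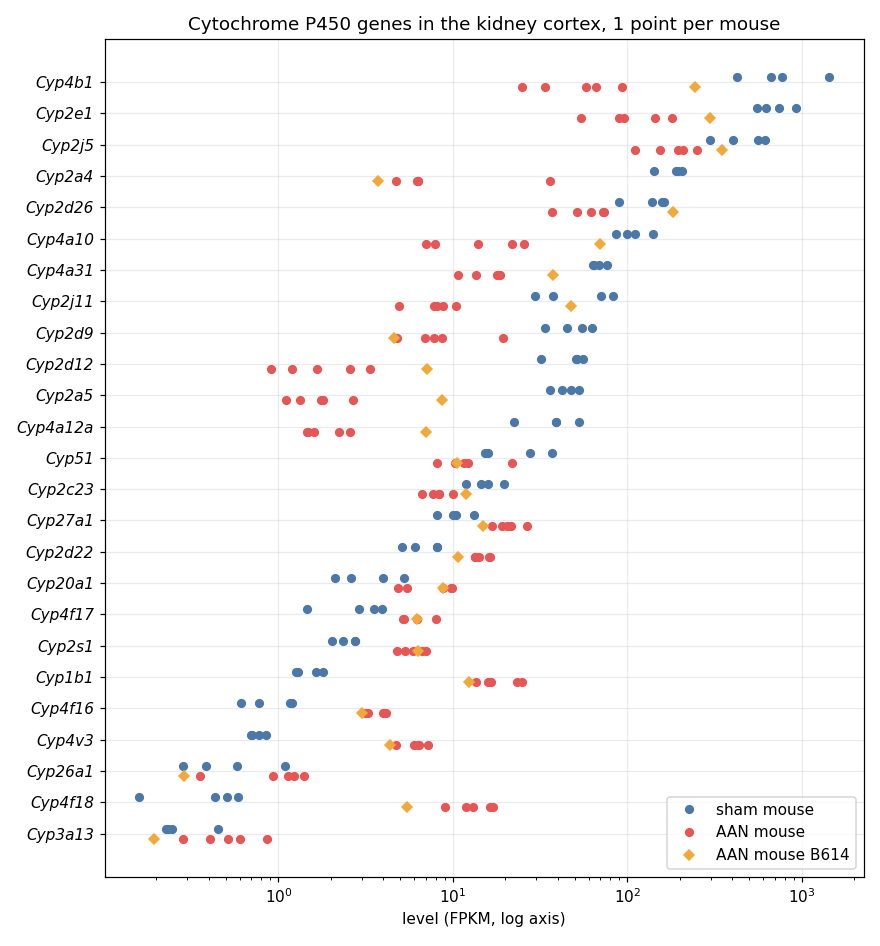
Level (x axis, FPKM, log axis) of the 25 tested members named by rule, with 1 point per mouse, sham in blue, AAN in red and AAN mouse B614 as an orange diamond. From Cyp4b1 down to Cyp4a12a the AAN points lie mostly left of the sham points, and from Cyp2d22 down to Cyp4f18 mostly right of them.

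Cyp2a4, a steroid hydroxylase, and Cyp2a5, which hydroxylates coumarin and nicotine, both lie on chromosome 7, with other members between them. They had among the largest falls. Cyp2a4 was at 141, 191, 195 and 206 FPKM in sham mice and at 3.70, 6.26 and 35.9 FPKM (lowest, median, highest) in AAN mice. Cyp2a5 was at 42.1, 36.2, 47.4 and 52.7 FPKM in sham mice and at 1.10, 1.77 and 8.65 FPKM in AAN mice. Neither overlapped between the groups. The log2 fold changes were -4.61 ± 0.51 for Cyp2a4 (limma, adjusted p = 1.2e-05) and -4.27 ± 0.46 for Cyp2a5 (limma, adjusted p = 9.49e-06). The highest AAN mouse was not the same for both: B630 for Cyp2a4 and B614 for Cyp2a5, and B614 was the lowest AAN mouse for Cyp2a4. The summed level of the pair was 183 to 259 FPKM in sham mice and 6.52 to 37.0 FPKM in AAN mice. The longest protein-coding transcripts of the pair were 98.2% identical over 1739 aligned columns, so that the split between them is uncertain. The log2 difference between them within a mouse changed by -0.34 ± 0.81 (exact two-sided permutation test, p = 0.61, Benjamini-Hochberg 0.61 over 6 pairs) and turned to 0.24 without mouse B614.

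The 250 bases before the RefSeq start of these genes (build GRCm38.p6) are shown because they too are nearly the same: 245 of 251 aligned columns were identical. A part of the promoters in the falls was not tested. Cyp2d26, whose fall did not reach 2-fold with all mice, is given beside them. Capitals mark the letters GTTAAT (part of a site of HNF1, a factor of tubule and liver cells), CAAAGT (the core of an HNF4 site) and TATAAA (the TATA box), searched on both strands, so that a match on the other strand reads as the reverse complement.
Cyp2a4 (chr7:26306942-26307191, plus strand): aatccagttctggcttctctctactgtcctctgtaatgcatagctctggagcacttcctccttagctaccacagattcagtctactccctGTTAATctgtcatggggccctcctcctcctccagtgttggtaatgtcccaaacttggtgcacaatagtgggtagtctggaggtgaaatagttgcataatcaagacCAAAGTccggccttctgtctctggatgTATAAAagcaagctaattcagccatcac
Cyp2a5 (chr7:26835089-26835338, plus strand): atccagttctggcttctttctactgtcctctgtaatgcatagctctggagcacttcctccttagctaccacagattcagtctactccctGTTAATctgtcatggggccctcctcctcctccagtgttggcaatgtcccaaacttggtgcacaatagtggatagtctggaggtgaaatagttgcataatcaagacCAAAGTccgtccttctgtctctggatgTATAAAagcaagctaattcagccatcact
Cyp2d26 (chr15:82794246-82794495, minus strand): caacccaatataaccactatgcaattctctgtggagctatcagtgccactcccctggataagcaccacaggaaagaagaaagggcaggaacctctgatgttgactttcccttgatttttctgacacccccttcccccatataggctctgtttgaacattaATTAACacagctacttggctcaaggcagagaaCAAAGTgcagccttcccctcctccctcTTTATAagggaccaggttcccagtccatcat
Each of these promoters holds all 3 words. Over all 32851 RefSeq promoters of this length, 6.43% hold GTTAAT, 12.6% CAAAGT and 12.4% TATAAA. Of the 11 lower members with a promoter in the table, 4 hold GTTAAT, 3 CAAAGT and 5 TATAAA. Of the 9 higher members with one, none holds GTTAAT, 5 hold CAAAGT and 2 TATAAA. A match is a description of the letters and shows no binding.

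Of the other genes of the CYP2A, CYP2B, CYP2F and CYP2S branch, Cyp2f2 was low in sham mice (0.196 to 0.913 FPKM) and lower in AAN mice (0.0281 to 0.254 FPKM), with overlap. Cyp2s1, an enzyme of epithelia outside the liver, went the other way, from 2.03 to 2.76 FPKM in sham mice to 4.81 to 7.02 FPKM in AAN mice (log2 fold change 1.25, limma, adjusted p = 4.49e-05). Its rise was 0.50 after rescaling by the median of ratios and 0.39 after quantile normalization, below 2-fold in both. The 4 members of the CYP2B subfamily listed were too low to test.

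The CYP2D subfamily, whose human relative clears many drugs, did not move as 1 block. Cyp2d12 was at 31.8, 51.3, 55.4 and 50.5 FPKM in sham mice and at 0.903, 2.12 and 7.10 FPKM (lowest, median, highest) in AAN mice, with a log2 fold change of -4.32 ± 0.47 (limma, adjusted p = 1.05e-05). Cyp2d9, a testosterone hydroxylase, was at 45.0, 62.6, 33.7 and 54.8 FPKM in sham mice and at 4.59, 7.34 and 19.4 FPKM in AAN mice (log2 fold change -2.63 ± 0.36, limma, adjusted p = 6.89e-05). Neither gene overlapped between the groups. Cyp2d26 did overlap. It was at 157, 90.1, 138 and 163 FPKM in sham mice and at 36.8, 67.2 and 183 FPKM in AAN mice, where the highest value, that of B614, lay above every sham mouse. Its log2 fold change of -0.94 (limma, adjusted p = 0.0448) did not reach 2-fold. Without mouse B614, the other AAN mice lay below every sham mouse and Cyp2d26 passed the limits at -1.22 (limma, adjusted p = 0.00137), as it did at -1.70 after median-of-ratios rescaling (adjusted p = 0.00242), but not at -0.96 after quantile normalization (adjusted p = 0.0691). Cyp2d22 rose from 6.06, 5.08, 8.09 and 8.12 FPKM to 10.7, 13.8 and 16.3 FPKM, without overlap (log2 fold change 1.04, limma, adjusted p = 0.000436). That rise is near the limit of 2-fold, was 0.28 after median-of-ratios rescaling and 0.42 after quantile normalization, and fell below 2-fold when any of the mice B607, B634, B630 or B666 was left out.

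Within a mouse, Cyp2d26 gained on Cyp2d12 by 3.39 ± 0.43 on the log2 scale in AAN against sham mice (exact permutation test, p = 0.00476, the smallest that 210 splits of the mice allow, Benjamini-Hochberg 0.00952 over 6 pairs). It lost against Cyp2d22 by a change of -1.97 ± 0.40 (exact permutation test, p = 0.019, Benjamini-Hochberg 0.0286). A single scaling factor per library cancels in such differences apart from the pseudocount, while quantile normalization can move them. All 6 pairs were chosen after the values were seen. The pseudogene Cyp2d37-ps was listed at 0 in the 4 sham mice and at up to 1.53 FPKM in AAN mice, with mouse B614 also at 0.

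The CYP4A enzymes hydroxylate the end of fatty acids and of arachidonic acid. Their genes lie with Cyp4b1 in 1 stretch of chromosome 4 (115299046 to 115647723 in GRCm38). Of the 6 tested, 4 were lower in AAN mice and none was higher, beside 3.43% and 35.8% of all genes. Their median log2 fold change was -2.26. Cyp4a10, a target of the fatty acid sensor PPAR-alpha, was at 99.5, 111, 85.8 and 141 FPKM in sham mice and at 7.0, 17.9 and 69.7 FPKM (lowest, median, highest) in AAN mice. Cyp4a31 was at 63.3, 69.1, 64.3 and 76.5 FPKM in sham mice and at 10.6, 18.0 and 37.5 FPKM in AAN mice. In both genes the groups did not overlap and B614 was the highest AAN mouse. The log2 fold changes were -2.60 ± 0.54 for Cyp4a10 (limma, adjusted p = 0.00138) and -1.92 ± 0.28 for Cyp4a31 (limma, adjusted p = 0.000125). Their difference within a mouse changed by -0.68 (exact permutation test, p = 0.1, Benjamini-Hochberg 0.12), with an exact p of 0.0397 without B614.

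Cyp4a12a, the androgen-induced enzyme of male mouse kidneys, was at 39, 38.8, 52.7 and 22.3 FPKM in sham mice and at 1.46, 1.92 and 7.05 FPKM in AAN mice. The groups did not overlap, and the log2 fold change was -3.94 ± 0.41 (limma, adjusted p = 7.39e-06). Its close copy Cyp4a12b was at 8.20, 7.61, 10.1 and 6.61 FPKM in sham mice and at 2.50, 5.63 and 13.1 FPKM in AAN mice, with overlap and a log2 fold change of -0.58 (limma, adjusted p = 0.205). It passed the limits at -1.33 after median-of-ratios rescaling and at -1.26 after quantile normalization (limma, adjusted p = 0.0103 and 0.0193). Cyp4a12a was the higher of this pair in each sham mouse and the lower in each AAN mouse, though nearly equal to it in B614 (7.05 and 7.10 FPKM). The difference within a mouse changed by -3.36 ± 0.37 on the log2 scale (exact permutation test, p = 0.00476, Benjamini-Hochberg 0.00952). The transcripts of the pair were 98.3% identical, and 35.8% of the 100-base windows of Cyp4a12a occur unchanged in Cyp4a12b, so fragments could be assigned to either. The sum of the pair was 28.9 to 62.9 FPKM in sham mice and 3.97 to 15.4 FPKM in AAN mice.

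Cyp4a14, also a target of PPAR-alpha, rested on single mice. It was at 23.1, 11.3, 6.63 and 29.6 FPKM in sham mice and at 0.148, 0.535 and 53.1 FPKM in AAN mice, where B614 at 53.1 FPKM lay above every sham mouse and the other 5 reached at most 5.98 FPKM. The log2 fold change was -3.37 ± 1.32 (limma, adjusted p = 0.0427). It was -4.41 without mouse B614 (limma, adjusted p = 0.000985), and the call was lost in 7 of the 10 fits that leave out 1 mouse: those without B607, B634, H249, A483, B630, B639 or B642.

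**Figure D4:**
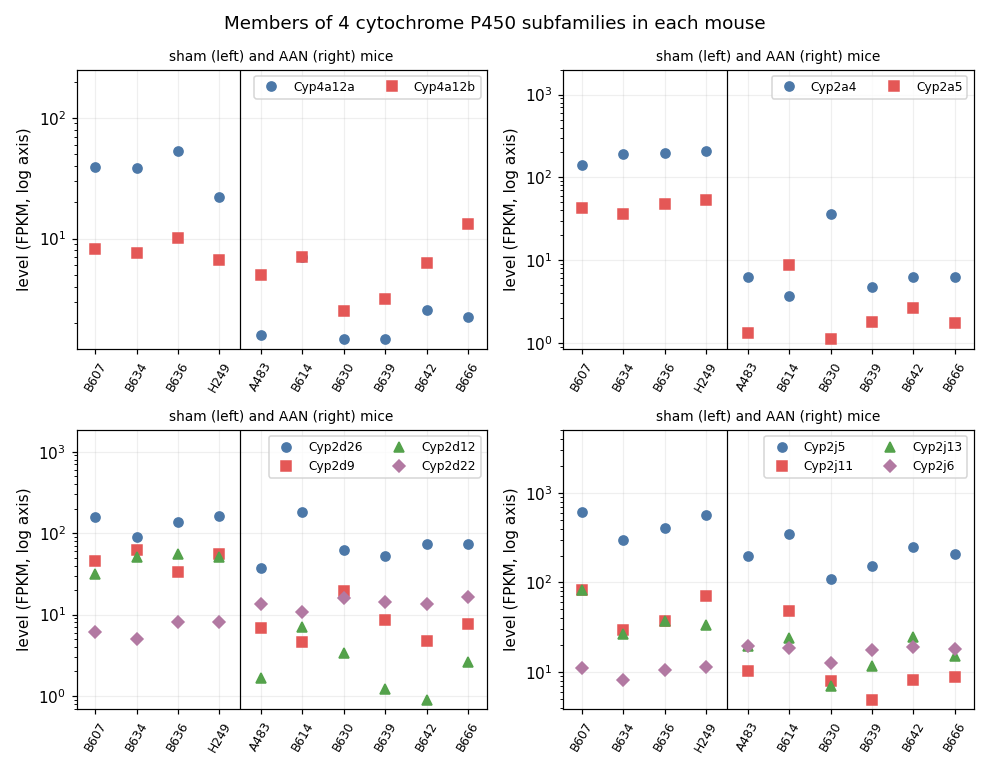
Levels (y axis, FPKM, log axis) of members of 4 subfamilies in each mouse (x axis), sham mice left of the line and AAN mice right of it. Cyp4a12a lies above Cyp4a12b in the sham mice and below it in the AAN mice (with near-equal levels in B614). Cyp2d12 and Cyp2d9 lie below Cyp2d26 in every mouse of both groups. Cyp2j6 stays between 8.17 and 19.3 FPKM while Cyp2j11 and Cyp2j13 come down to it or below in most AAN mice.

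The CYP2J enzymes make epoxides of arachidonic acid. Of the 8 members tested, 3 were lower and none was higher, beside 3.43% and 35.8% of all genes. Cyp2j5, the epoxygenase of the proximal tubule, was at 618, 296, 401 and 563 FPKM in sham mice and at 110, 202 and 347 FPKM (lowest, median, highest) in AAN mice. The groups overlapped through B614, the highest AAN mouse, and the log2 fold change was -1.19 ± 0.31 (limma, adjusted p = 0.00618). It was the smallest fall among members at 50 FPKM or more in sham mice that passed the limits, and left Cyp2j5 as the leading P450 gene in AAN mice. Cyp2j11 fell from 82.8, 29.7, 37.4 and 70.4 FPKM to 4.91, 8.43 and 47.7 FPKM (log2 fold change -2.25 ± 0.54, limma, adjusted p = 0.00345). Here too B614 alone overlapped the sham mice, since the other AAN mice reached at most 10.4 FPKM. Cyp2j13 was lower without overlap (log2 fold change -1.37, limma, adjusted p = 0.00945).

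Cyp2j6 differed from these. It was at 8.17 to 11.5 FPKM in sham mice and at 12.5 to 19.3 FPKM in AAN mice, without overlap, but its log2 fold change of 0.74 did not reach 2-fold (limma, adjusted p = 0.0023), and was -0.02 after median-of-ratios rescaling. Relative to Cyp2j6 in the same mouse, Cyp2j5 changed by -1.93 ± 0.22 on the log2 scale (exact permutation test, p = 0.00476, Benjamini-Hochberg 0.00952). Cyp2c23, the main CYP2C epoxygenase of the mouse kidney, was at 14.5, 11.9, 15.9 and 19.6 FPKM in sham mice and at 6.68, 8.30 and 11.8 FPKM in AAN mice. The groups did not overlap, though by little, and the log2 fold change of -0.81 (limma, adjusted p = 0.00342) did not reach 2-fold. It passed the limits at -1.57 after median-of-ratios rescaling and at -1.34 after quantile normalization (limma, adjusted p = 2.92e-05 and 0.000176). Of the other CYP2C genes, Cyp2c69 was lower (0.651 to 1.20 FPKM in sham mice, 0.0422 to 0.364 FPKM in AAN mice). Cyp2c65 was higher, listed at 0 in 3 sham mice and at 0.116 to 0.441 FPKM in AAN mice.

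Epoxides made by these enzymes are opened by epoxide hydrolases. Ephx2, the soluble hydrolase that acts on fatty acid epoxides, had a mean of 254 ± 29.9 FPKM in the sham group (SD, n = 4) and fell to 73.2 ± 23.0 FPKM in the AAN group (SD, n = 6). Ephx1, the microsomal hydrolase of xenobiotic epoxides, rose from 13.4 ± 0.764 FPKM to 80.7 ± 12.5 FPKM. The log2 fold changes were -1.84 and 2.57, both without overlap (limma, adjusted p = 1.94e-05 and 1.84e-07). Of the 4 epoxide hydrolase genes tested, 2 were higher and 1 lower, beside 35.8% and 3.43% of all genes. The other higher gene was Ephx4, at under 1 FPKM. Its sham mean was 0.0080 FPKM and its AAN mean 0.256 FPKM. Ephx4 could thus be tested only through its AAN values, and its call is a description.

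The largest rises came in members that were low in sham mice. Cyp4f18, which inactivates leukotriene B4 in myeloid cells, was at 0.505, 0.159, 0.588 and 0.434 FPKM in sham mice and at 5.44, 12.5 and 16.9 FPKM (lowest, median, highest) in AAN mice. Its mean was 28.7-fold higher, with a log2 fold change of 4.54 ± 0.35 (limma, adjusted p = 8.02e-07). Cyp1b1, which hydroxylates oestrogens and polycyclic hydrocarbons, was at 1.65, 1.80, 1.3 and 1.25 FPKM in sham mice and at 12.4, 16.3 and 25 FPKM in AAN mice, a log2 fold change of 3.45 ± 0.22 (limma, adjusted p = 2.51e-07). Cyp4v3, a fatty acid hydroxylase, was at 0.705, 0.693, 0.778 and 0.851 FPKM in sham mice and at 4.36, 6.13 and 7.20 FPKM in AAN mice (log2 fold change 2.77 ± 0.18, limma, adjusted p = 2.37e-07). None of these genes overlapped between the groups, and B614 was the lowest AAN mouse in each. They rose under every rescaling: after quantile normalization, which gave the smallest values, the log2 fold changes were 3.48, 2.59 and 1.70.

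The promoters of Cyp1b1 and Cyp4f18, the genes with the largest rises, are shown because, of the words searched, each of them holds only 1. That of Cyp4v3 also holds only 1, GCGTG, and is not shown. Capitals mark CAAAGT and, in Cyp1b1, GCGTG on the other strand (CACGC), the core of the xenobiotic response element that the aryl hydrocarbon receptor binds. GCGTG is held by 28.2% of all RefSeq promoters of this length, by 5 of the 9 higher members with a promoter and by 2 of the 11 lower ones. AGGTCA, part of a nuclear receptor site, was searched as well. It is held by 14.0% of all these promoters, by none of the 9 higher members and by 2 of the 11 lower ones.
Cyp1b1 (chr17:79715062-79715311, minus strand): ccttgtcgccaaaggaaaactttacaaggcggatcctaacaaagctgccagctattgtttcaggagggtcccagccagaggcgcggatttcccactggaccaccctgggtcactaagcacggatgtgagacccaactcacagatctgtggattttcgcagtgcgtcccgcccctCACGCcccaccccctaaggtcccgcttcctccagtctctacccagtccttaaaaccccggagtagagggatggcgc
Cyp4f18 (chr8:72009627-72009876, minus strand): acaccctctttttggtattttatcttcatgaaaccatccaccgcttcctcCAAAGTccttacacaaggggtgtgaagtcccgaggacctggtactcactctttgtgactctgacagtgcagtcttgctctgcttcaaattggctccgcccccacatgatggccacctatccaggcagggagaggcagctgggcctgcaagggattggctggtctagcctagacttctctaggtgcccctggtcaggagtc
Ahr itself, the gene of that receptor, averaged 0.648 ± 0.217 FPKM in sham mice and was higher in AAN mice, at 2.65 ± 0.399 FPKM, by 1.91 on the log2 scale (limma, adjusted p = 1e-05). Cyp4f18 overlaps Zfp961 on chromosome 8 and Cyp4v3 overlaps Gm45753, and use of strand in counting is not given in the sources used here.

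Of the 5 CYP4F genes tested, which hydroxylate leukotrienes and long fatty acids, 3 were higher and 1 was lower, beside 35.8% and 3.43% of all genes. Cyp4f16 was at 1.20, 0.612, 0.778 and 1.16 FPKM in sham mice and at 2.99, 3.63 and 4.13 FPKM in AAN mice (log2 fold change 1.86, limma, adjusted p = 1.32e-05), without overlap. Cyp4f17 was at 3.95, 1.45, 2.91 and 3.55 FPKM in sham mice and at 5.18, 6.21 and 7.96 FPKM in AAN mice, also without overlap. Its log2 fold change of 1.11 (limma, adjusted p = 0.00257) was below 2-fold without sham mouse B634, at 0.81, and under both rescalings, at 0.37 and 0.28. The lower member was Cyp4f14, at 0.175 to 0.302 FPKM in sham mice, and Cyp4f13 did not pass the limits (log2 fold change 0.19, turning to -0.56 and -0.52 under the rescalings).

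Markers of other cells moved with these rises. Each of the 7 leukocyte markers and of the 7 macrophage markers was higher in AAN mice, with summed levels of 8.21 to 15.4 and 42.7 to 72.7 FPKM in sham mice and of 166 to 500 and 1692 to 5372 FPKM in AAN mice, B614 being the lowest. The 7 fibroblast and pericyte markers were higher as well, from 16.2 to 22.2 FPKM to 116 to 263 FPKM, and all 8 injured tubule markers rose. None of these lists had a defining marker at 0 in all sham mice. Their part in the rises of Cyp4f18, Cyp1b1 and Cyp4v3 was not tested.

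Of the 6 sterol and bile acid enzymes tested, 3 were higher and none was lower, beside 35.8% and 3.43% of all genes. Cyp51, which removes a methyl group from lanosterol on the way to cholesterol, was at 27.6, 16.0, 15.3 and 36.9 FPKM in sham mice and at 8.14, 11.1 and 21.9 FPKM in AAN mice, with overlap and a log2 fold change of -0.91 (limma, adjusted p = 0.0224) that did not reach 2-fold. Cyp27a1, the mitochondrial sterol hydroxylase, was at 13.2, 8.10, 10.4 and 10.1 FPKM in sham mice and at 14.9, 19.7 and 26.5 FPKM in AAN mice, without overlap. Its log2 fold change of 0.92 (limma, adjusted p = 0.00151) did not reach 2-fold. Cyp51 passed the limits at -1.67 under median-of-ratios rescaling and at -1.37 under quantile normalization, where Cyp27a1 was at 0.16 and 0.38. Cyp7b1, the oxysterol hydroxylase, ranged from 3.93 to 23.2 FPKM in sham mice and from 5.15 to 11.8 FPKM in AAN mice and did not pass the limits (log2 fold change -0.28).

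The 3 members of this group that were higher, Cyp39a1, Cyp46a1 and Cyp8b1, had means of at most 2.30 FPKM in either group. Cyp39a1 and Cyp46a1 overlapped between the groups and each lost its call in 6 of the 10 fits that leave out 1 mouse. For Cyp39a1 these were the fits without B634, B636, A483, B614, B642 or B666, with values down to 0.91, and for Cyp46a1 those without B607, H249, A483, B630, B639 or B666, with values down to 0.75. Cyp46a1 also turned to -0.04 after quantile normalization. Cyp8b1 did not overlap. Under quantile normalization none of the 3 passed the limits, with Cyp39a1 at 0.02 and Cyp8b1 at 0.71 (limma, adjusted p = 0.976 and 0.2). After median-of-ratios rescaling Cyp8b1 passed at 1.13 (limma, adjusted p = 0.0195) and Cyp39a1 and Cyp46a1 did not. Of the 16 neighbours of Cyp51 in sterol synthesis, 1 was higher (Sqle, log2 fold change 1.01, limma, adjusted p = 0.0269) and none was lower, with Hmgcs1 just under 2-fold (117 ± 20.7 FPKM in the sham group, 59.2 ± 14.2 FPKM in the AAN group).

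Cyp20a1, a member with no settled substrate, rose with overlap from 5.22, 2.61, 2.10 and 3.96 FPKM to 4.87, 8.78 and 9.92 FPKM (log2 fold change 1.20, limma, adjusted p = 0.00356). The rise was just under 2-fold without sham mouse B636. Under the rescalings it was well below 2-fold, at 0.45 and 0.41, and passed neither limit (limma, adjusted p = 0.134 and 0.154). Neither Cyp26a1, which clears retinoic acid, nor Cyp3a13, the drug oxidising CYP3A gene with the highest level here, passed the limits. Cyp26a1 was at 0.285 to 1.10 FPKM in sham mice and 0.287 to 1.40 FPKM in AAN mice, and Cyp3a13 at 0.226 to 0.448 FPKM and 0.194 to 0.863 FPKM. Their log2 fold changes of 0.49 and 0.50 turned to -0.16 and -0.10 under median-of-ratios rescaling and to -0.73 and -0.74 under quantile normalization.

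The steroidogenic members Cyp11a1, Cyp11b1, Cyp17a1 and Cyp21a1 were all too low to test. Their summed level was at most 0.122 FPKM in sham mice and 0.179 FPKM in AAN mice, and Cyp17a1 was at 0.122 FPKM at its highest. Of the 8 markers of the adrenal cortex, which lies next to the kidney, 5 were tested and 1 was higher, and Mrap was at 0 in all sham mice. Of the 8 hepatocyte markers none was higher and 3 were lower, with summed levels of 75.0 to 223 FPKM in sham mice and 30.1 to 77.4 FPKM in AAN mice, most of it Ttr. Alb, a defining hepatocyte gene, averaged 2.90 FPKM in sham mice. The 28 untested members reached at most 0.378 FPKM in any mouse, in Cyp2d34.

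To set the falls beside the loss of proximal tubule markers, the mean log2 level of the 10 S1 and S2 markers was subtracted in each mouse. Of those markers 6 were lower, with a median log2 fold change of -1.22. They were mixed, from -4.28 in Slc22a6 to 0.12 in Slc5a12, and the change of the subtracted mean lay below the median. Of the 8 markers of the late proximal tubule (S3) 4 were lower, with a median of -1.35. Relative to the S1 and S2 markers 7 members were lower in AAN mice (limma, adjusted p of at most 0.05), beside 0.485% of all genes, and 26 were higher, beside 91.9%. The 7 were Cyp2a4 (-3.06), Cyp2d12 (-2.78), Cyp2a5 (-2.73), Cyp4a12a (-2.39), Cyp4b1 (-1.99), Cyp4a10 (-1.05) and Cyp2e1 (-0.95), each a change in log2 level relative to the markers. Cyp2j5 (0.36), Cyp2j13 (0.17), Cyp4a31 (-0.38) and Cyp2j11 (-0.71) did not differ from the marker mean by this test. Without mouse B614, 9 members were lower than the markers, and with S3 markers in place of S1 and S2 markers 5 were. The shares of all genes in these other fits are not given here, so neither count is set against a background. The 5 thick limb markers did not pass the limits in either direction, and of the 7 markers of distal tubule and collecting duct 1 was lower.

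Most partners and regulators of the enzymes did not pass the limits. Of the 7 electron donors tested, 2 were lower and none was higher. Cyb5a, the microsomal cytochrome b5, fell to 61.2 ± 8.96 FPKM in AAN mice (SD, n = 6), where sham mice had 176 ± 31.1 FPKM (SD, n = 4), without overlap (log2 fold change -1.52, limma, adjusted p = 1.4e-05). Por, the reductase on which all microsomal P450s depend, fell from 41.6 ± 16.2 FPKM to 20.1 ± 10.6 FPKM, with overlap (log2 fold change -1.09, limma, adjusted p = 0.0185). Fdx1, the mitochondrial ferredoxin, was at 46.9 ± 4.27 and 26.3 ± 4.26 FPKM and did not reach 2-fold (log2 fold change -0.84). Among 8 genes of heme synthesis only Cpox passed the limits (log2 fold change -1.42, limma, adjusted p = 0.00965), while Alas1, the rate-limiting step, was at 26.7 ± 10.5 and 18.0 ± 5.08 FPKM.

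Of the 13 transcription regulators tested, 1 was lower and 1, Ahr, was higher. The lower gene was Hnf4a, whose protein binds the CAAAGT core marked above. It was at 134, 71.5, 79.3 and 83.4 FPKM in sham mice and at 42.2 ± 15.4 FPKM in AAN mice, without overlap (log2 fold change -1.15, limma, adjusted p = 0.00318). A part of Hnf4a in the changes of the members was not tested. Of the 7 genes of cholesterol import and steroid conversion tested, 1 was higher and 1 was lower. Hsd3b2 fell from 42.0 ± 7.79 to 5.73 ± 3.55 FPKM (log2 fold change -2.99, limma, adjusted p = 9.41e-06) and Tspo rose from 69.7 ± 9.30 to 148 ± 32.1 FPKM (log2 fold change 1.07, 0.30 under median-of-ratios rescaling). Of 5 podocyte markers 1 was higher, and of 6 endothelial markers none passed the limits.

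Scaling set how many members counted as higher. The 16 lower members were also lower after median-of-ratios rescaling and after quantile normalization, which called 21 and 22 members lower, beside 10.5% and 11.6% of all genes. Of the 13 higher members, 7 remained after the first rescaling and 5 after the second, beside 19.0% and 14.9% of all genes. The 5 were Cyp4f18, Cyp1b1, Cyp4v3, Cyp2c65 and Cyp2d37-ps. Of these, Cyp2c65 and Cyp2d37-ps averaged 0.0074 and 0 FPKM in sham mice. Both passed the level filter only through AAN mice, so their calls are a description. The median of all genes was 0.065 and -0.098 under these rescalings.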

How the data were processed

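The authors removed rRNA, adapter, short and low-quality reads, mapped the paired-end reads to GRCm38 with HISAT2 and computed FPKM per gene with StringTie, as the methods and labels state. The deposited files hold these FPKM for 21792 Ensembl genes in each mouse, with no counts and no scaling between mice named. The authors named edgeR for differential expression and did not state its input. Because FPKM were deposited, log2(FPKM + 0.1) was tested with limma 3.58.1 (R 4.3.3; moderated variances with trend and robust fitting), so that changes of low genes are understated. It was fitted on all 10 mice without covariates over 17129 genes that averaged 0.1 FPKM or more, with Benjamini-Hochberg adjustment over all of them. A gene was called at an adjusted p of no more than 0.05 with a change of 2-fold or more, the limits of the methods. Nothing says that tags mark batches.

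Symbols and positions came from GENCODE vM21, which held 21650 of the genes. Promoters came from RefSeq (GRCm38.p6), which held 54 of the members. Depth was recovered from genes with 1 transcript and values under 0.3 FPKM, of which 94.6% to 96.9% were whole fragments within 0.05. No 2 mice had identical values. Single values per mouse were tested by exact two-sided permutation over the 210 splits of the mice.

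Members, lists and tests were chosen with earlier results of these data known. Genes were named by rule: the 8 members highest in sham and the 8 highest in AAN mice, up to 8 largest rises and 8 largest falls past the limits without overlap and with at least 1 FPKM in the higher group, and the highest member of each functional group, which gave 26, and up to 4 genes of each pathway list, those with the highest mean. Cyp2c65, Cyp2c69, Cyp2d34, Cyp2d37-ps, Cyp2f2, Cyp2j6, Cyp2j13, Cyp4a12b, Cyp4a14, Cyp4f13, Cyp4f14, Cyp7b1, Cyp8b1, Cyp39a1, Cyp46a1, the other steroidogenic members, Ahr, Por, Sqle, Alb and Mrap were named after their values were seen. The lists were proximal tubule S1/S2 and S3, thick limb, distal tubule with collecting duct, injured tubule, podocyte, endothelium, fibroblast, leukocyte, macrophage, adrenal cortex, hepatocyte, and the pathway lists of electron donors, heme synthesis, epoxide hydrolases, regulators, sterol synthesis and steroid neighbours.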

Additional observations from a re-analysis of the deposited data

Results flagged for a closer look

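Single mice stood apart in 11 of the 52 groups of values examined (26 named members in 2 groups of mice), where the gap to the nearest other mouse was wide relative to the span of that group's values, by Dixon's criterion. For normally distributed values chance gives about 1 in 20, or 2.6 of 52. The gaps were taken on FPKM and not on the log2 scale of the tests. That rate need not hold for FPKM, so the 11 are a description and no excess over chance is claimed. AAN mouse B614 accounted for 7 of the 11, in each as the highest AAN mouse. It had 8.65 FPKM of Cyp2a5 (the other AAN mice 1.10 to 2.67), 183 FPKM of Cyp2d26 (36.8 to 73.5), 47.7 FPKM of Cyp2j11 (4.91 to 10.4), 69.7 FPKM of Cyp4a10 (7.0 to 25.6), 7.05 FPKM of Cyp4a12a (1.46 to 2.56), 37.5 FPKM of Cyp4a31 (10.6 to 18.7) and 243 FPKM of Cyp4b1 (24.9 to 92.8). These values are not independent, since they come from 1 mouse.

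AAN mouse B630 had 35.9 FPKM of Cyp2a4 (the others 3.70 to 6.32) and 19.4 FPKM of Cyp2d9 (4.59 to 8.68). AAN mouse B666 had 21.9 FPKM of Cyp51 (8.14 to 12.3). Sham mouse B634 had 0.448 FPKM of Cyp3a13 (the other sham mice 0.226 to 0.247).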

How the results depend on the processing

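The count of members higher in AAN mice was 13 as reported and moved to 6 with a pseudocount of 1, 7 with median of ratios and 5 with quantile normalization. Over all genes, 6126 were higher as reported, against 4025 where a mean of 1 FPKM was required, 2909 with a pseudocount of 1, 3261 with median of ratios, 2546 with quantile normalization and 9482 with no fold limit, and 588 were lower as reported, against 1801, 1992 and 1027 for the last 3 of these. Members higher than the proximal tubule markers were 26 as reported, 52 with no filter on low values and 16 where a mean of 1 FPKM was required. Leaving out 1 mouse at a time gave 10 to 13 members higher, 15 to 17 lower, 5488 to 6684 genes higher, 524 to 703 lower, and 22 to 32 members higher and 5 to 9 lower than the markers. The counts relative to the markers in these other fits are given without the shares of all genes. Without B614 and B634 together 11 members were higher and 19 lower, and mice with B tags alone gave 11 and 14. Among the members named above and the pairs, signs turned for Cyp26a1 (-0.16 with median of ratios, -0.73 with quantile normalization), Cyp3a13 (-0.10 and -0.74), Cyp4f13 (-0.56 and -0.52), Cyp2j6 (-0.02 with median of ratios), Cyp46a1 (-0.04 with quantile normalization), Cyp7b1 (up to 0.18 when 1 mouse was left out), and the difference of Cyp2a4 and Cyp2a5 (-0.34 as reported, -0.98 to 0.24 when 1 mouse was left out, 0.36 without both B614 and B634). Tested members not named above turned as well. Cyp2r1 (-0.16 and -0.83), Cyp2j9 (-0.47 and -0.58) and Cyp26b1 (-0.54 and -1.15) turned under both rescalings. Cyp2j8 (-0.38) and Cyp4a32 (-0.47) turned under quantile normalization. The cause was not tested. Of the alternative values for the members named by rule, 461 kept their direction and side of the limits, 19 lost the call, 14 gained it and 4 turned. The change of Cyp2d26 against Cyp2d22 had an exact p of 0.0536 with B tags alone. The pair tests were added after the data were seen. No paired analysis was possible because the labels give the mice tags in place of replicate numbers and no tag occurs in both groups. Depth limits members under about 0.1 FPKM, and fragments shared between near-identical copies limit single members of the Cyp2a and Cyp4a12 pairs.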
